A study of Equus caballus with 15 samples.

Results

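The scavenger receptors examined here were CD163 and a set of 9 further receptors, taken by gene symbol from the deposited table across all 5 conditions. Of the 10 named, 9 were among the 16932 genes listed (CD163, STAB1, CD36, CD5L, MARCO, MSR1, SCARB1, OLR1 and COLEC12), and SCARA5 was not analysed here. CD163 was made the main gene because it fell most in the macrophages given the blood products, so its falls against IL-1ß alone chose it and are given below as a description without a test. The same holds for the falls of the other receptors in those 2 contrasts.

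Macrophages were grown from peripheral blood mononuclear cells of 2 horses, with M-CSF at 30 ng/ml over 5 days, and their polyadenylated RNA was sequenced in 3 libraries for each of 5 conditions. Untreated macrophages received neither cytokine nor product, and the other 4 conditions received IL-1ß at 10 ng/ml, alone or with an orthobiologic therapy (OT) making up 25% of the medium for 24 h. The OTs were conditioned medium of bone marrow mesenchymal stromal cells (MSC-CM), platelet rich plasma lysed by freezing (PRP lysate) and blood serum conditioned by incubation (autologous conditioned serum, ACS), each from 3 healthy donor horses other than the macrophage donors. The same 3 horses gave blood and bone marrow for all OTs. The libraries of an OT thus replicate the product, while the study describes those of IL-1ß and of untreated cells as technical replicates. The labels describe collection after the treatment was washed off, and the study's methods add 24 h of culture in fresh medium before it. All groups shared the M-CSF culture, and which horse's cells went into which library was not given in the sources used here, so p-values measure only the spread between these libraries.

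Scavenger receptors are surface proteins of several unrelated families that bind modified lipoproteins, microbes, dying cells and spent proteins and carry them into the cell. CD163 is the macrophage receptor that takes up hemoglobin bound to haptoglobin. It is used as a marker of alternatively activated macrophages, is raised by glucocorticoids and IL-10, and is shed from the surface by the protease ADAM17. In joints it marks macrophages of the synovial lining and sublining.

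Values are CPM as deposited, which are read counts scaled to the same total in each library. The files gave no exon lengths, so levels were compared between conditions for a gene and not between genes. The libraries held 28410735 to 47894070 reads on genes, and 1 read was worth 0.0209 to 0.0352 CPM. On the first principal component, which held 55.4% of the variance, IL-1ß replicate 3 scored 103 and PRP lysate replicate 1 scored 51.7, against -26.6 to 20.7 in the other 13. CD68, a lysosomal glycoprotein of macrophages, was at 1340 to 2157 CPM, while the monocyte marker CD14 was at only 1.38 to 4.32 CPM. Genes that mark T cells were also present, and the 7 of them summed to 538 to 1542 CPM. That sum was highest in PRP lysate replicate 1 (1542) and IL-1ß replicate 3 (1450), and did not pass 1157 in the other 13. The NK cell marker sum was likewise highest there, at 1065 and 639 against 206 to 477. In such bulk samples fewer cells of a type and less RNA per cell cannot be told apart.

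CD163 (ENSECAG00000019111) lies on chromosome 6 from 35896420 to 35918134 of EquCab3.0. In untreated macrophages it was at 302, 281 and 147 CPM (replicates 1, 2 and 3). With IL-1ß alone it was at 685, 638 and 365 CPM, and with IL-1ß and MSC-CM at 411, 322 and 710 CPM. Every IL-1ß library and every MSC-CM library lay above every untreated library. With PRP lysate CD163 was at 7.34, 13.3 and 13.4 CPM, which rests on 273, 557 and 381 reads. With ACS it was at 92.0, 58.6 and 43.2 CPM. The PRP lysate libraries lay below the ACS libraries, and both lay below all of the other 9 libraries, with no overlap. CD163 thus spanned 96.8-fold over the 15 libraries, from PRP lysate replicate 1 to MSC-CM replicate 3.

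**Figure D1:**
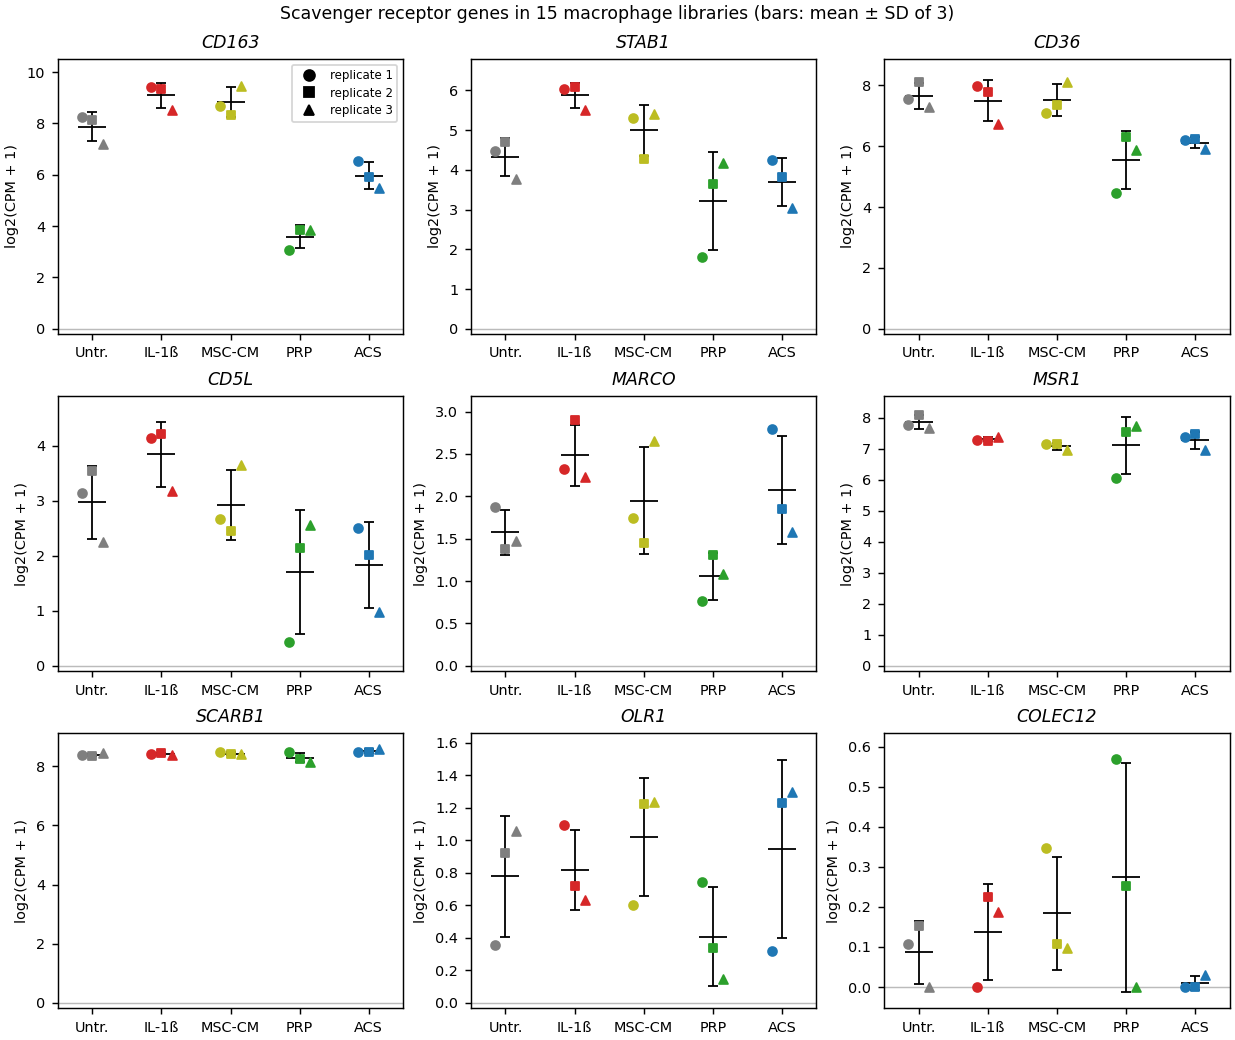
Level of each of the 9 scavenger receptor genes by library, as log2(CPM + 1) on the y axis and condition on the x axis, with a separate y range per gene. Symbols are replicates and bars are the mean ± SD of 3 libraries. CD163 falls from about 9 with IL-1ß to about 6 with ACS and under 4 with PRP lysate, while SCARB1 stays level.

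By condition the order of CD163 was IL-1ß (563 ± 173 CPM, SD, n = 3), MSC-CM (481 ± 203), untreated (243 ± 83.8), ACS (64.6 ± 25.0) and PRP lysate (11.4 ± 3.48). IL-1ß and MSC-CM, neighbours in that order, overlapped and were not shown to differ (log2 fold change -0.25, 95% confidence interval -1.09 to 0.59, limma adjusted p = 0.814). MSC-CM and untreated lay apart, with a log2 difference of 0.97 ± 0.39 (SE) that missed the threshold (limma adjusted p = 0.234). The log2 difference of ACS from untreated macrophages was -1.90 ± 0.39 (SE), lower with ACS, which is a description.

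A gene was called where limma on log2(CPM + 1), run over the 11628 genes that averaged 1 CPM or more, gave an adjusted p-value no higher than 0.05 together with a change of 2-fold or more. Of the 9 receptors 7 passed that minimum, and OLR1 and COLEC12 did not. On this scale the 1 added to each CPM pulls the changes of low genes such as MARCO and CD5L toward 0.

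The macrophages with IL-1ß alone were first set against untreated ones. CD163 was 2.31-fold higher with IL-1ß than without on the mean CPM, a log2 fold change of 1.22 ± 0.39 (SE), and all 3 IL-1ß libraries lay above all 3 untreated ones. It did not pass the test (limma adjusted p = 0.213). STAB1, CD5L and MARCO had higher means with IL-1ß as well, and MSR1 a lower mean. CD5L, CD36 and SCARB1 overlapped between the groups. None of the 7 receptors was called by limma, edgeR or DESeq2, where 0.292% of all genes were called in limma. At an unadjusted limma p-value of 0.05 or less stood 3 of the 7, against 12.95% of all genes. In 4 of the 7 the groups did not overlap (3 higher, 1 lower), against 16.2% of all genes. IL-1ß replicate 3 was the lowest IL-1ß library in 6 of the 7. Without it alone 0 receptors were called, with CD163 at a log2 fold change of 1.51 (limma adjusted p = 0.133) and STAB1 at 1.74 (limma adjusted p = 0.227). Without it and PRP lysate replicate 1 both passed (limma adjusted p = 0.0462 and 0.0356), in a fit that called 92 of all genes against 34 with all libraries.

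CD163 was the gene with the largest fall of all 11628 with PRP lysate against IL-1ß, at a log2 fold change of -5.50 ± 0.39 (SE), or 49.5-fold lower on the mean CPM. With ACS it had the second largest fall, -3.12 ± 0.39 (SE), or 8.71-fold lower. The same PRP lysate libraries set against untreated macrophages gave -4.28, and against MSC-CM -5.25, both the largest falls of those comparisons. ACS against MSC-CM gave -2.86. These values share the libraries that chose the gene.

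**Figure D2:**
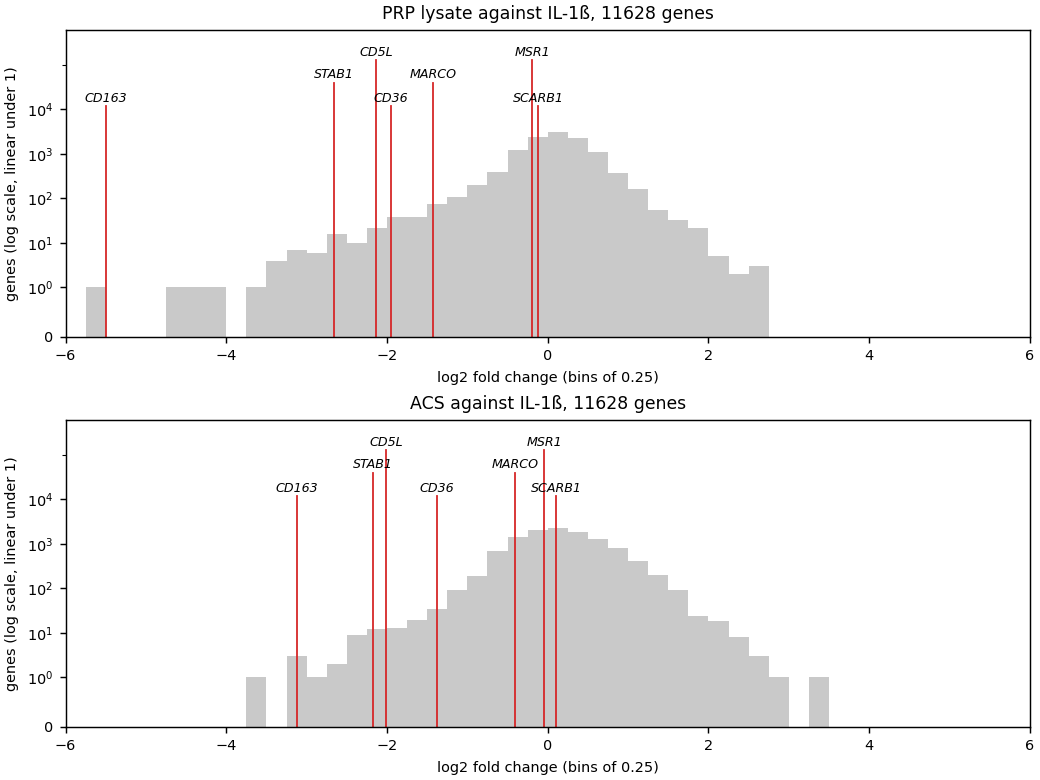
Number of genes by log2 fold change (x axis, bins of 0.25) among 11628 genes for PRP lysate against IL-1ß (top) and ACS against IL-1ß (bottom), with the count on a log y axis that is linear under 1. Red lines mark the 7 receptors tested. CD163 lies at the far left in both panels (-5.50 and -3.12) and SCARB1 (-0.12 and 0.10) and MSR1 (-0.20 and -0.04) lie near 0.

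Between the blood products, CD163 was 5.69-fold lower with PRP lysate than with ACS on the mean CPM, a log2 difference of -2.39 (95% confidence interval -3.23 to -1.54). All 3 PRP lysate libraries lay below all 3 ACS libraries. CD163 was chosen for its fall in these same 6 libraries, so the difference is given as a description and its p-value (limma adjusted p = 0.0347) is not independent of that choice. None of the other 6 receptors was called in this comparison, where 0.0946% of all genes were called, all of them lower with PRP lysate. The CD163 difference stayed between -2.64 and -2.10 when any of them was left out, while the adjusted p-value stayed under 0.05 in 1 of the 6 fits, without ACS replicate 3 (limma adjusted p = 0.0498). The limma adjusted p-value was 0.0934, 0.0612 and 0.111 without PRP lysate replicates 1, 2 and 3, and 0.237 and 0.176 without ACS replicates 1 and 2. A fit of only these 6 libraries gave an adjusted p-value of 0.146 in limma. In the same comparison 9 of 12 macrophage markers were below 0 (median -0.48, all genes -0.04), and all 6 T cell markers (median 0.41) and all 4 NK cell markers (0.59) tested were above 0, with 0 of them called. Their part in the difference was not tested.

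Set against CD68 of the same library, CD163 kept its order. Untreated macrophages held 7.71 to 14.1 CPM of CD163 per 100 CPM of CD68, IL-1ß 24.7 to 40.9 and MSC-CM 23.1 to 47.7. PRP lysate held 0.548 to 0.783 and ACS 2.69 to 5.47, below every library of the other conditions. CD68 itself was at 1340 to 1929 CPM with PRP lysate and 1602 to 1683 CPM with ACS, within or near the 1393 to 2157 CPM of the other conditions. Against IL-1ß all of the 12 macrophage markers tested but CD68 had a log2 fold change below 0 with PRP lysate (median -0.95, all genes 0.11), and AIF1, C1QC and LYZ were called lower. Against untreated macrophages all 12 were below 0 with PRP lysate (median -0.89, all genes 0.04), and C1QC and CSF1R were called lower. With ACS 9 of the 12 were below 0 against IL-1ß (median -0.31, all genes 0.13), with AIF1 called, and 11 against untreated (median -0.43, all genes 0.08), with 0 called. The summed level of the list was 2743 to 4626 CPM with PRP lysate, 4179 to 5496 with ACS, 4555 to 5275 with MSC-CM, 4103 to 6441 with IL-1ß and 4862 to 6688 without treatment. CSF1R, the receptor of M-CSF, was at 94.3 to 244 CPM with PRP lysate, 248 to 351 with ACS and 227 to 539 in the others. The T cell marker sum was 675 to 1542 CPM with PRP lysate, 647 to 828 with ACS, 1068 to 1157 with MSC-CM, 761 to 1450 with IL-1ß and 538 to 791 without treatment. The part of the macrophage and T cell markers in the CD163 levels was not tested.

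**Figure D3:**
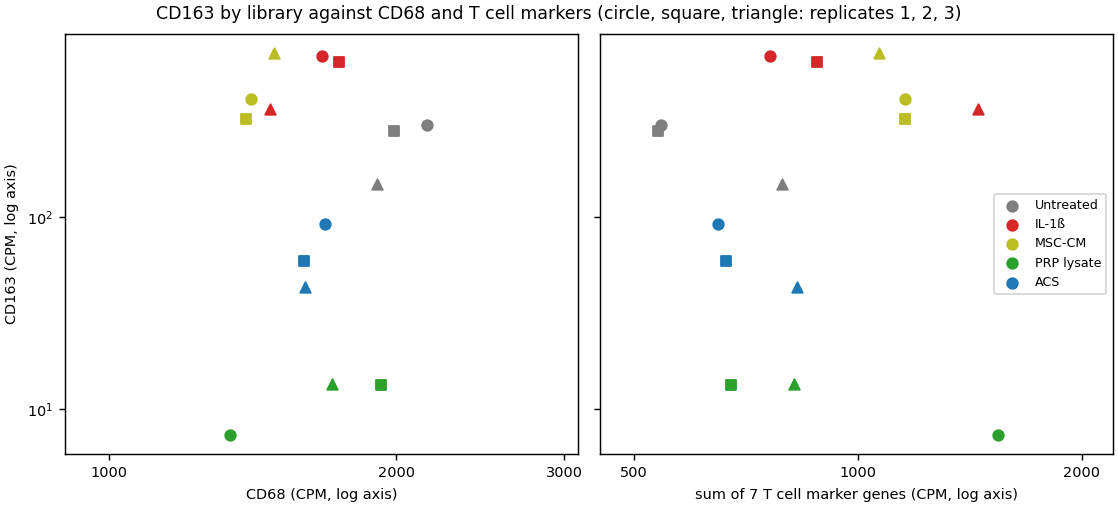
CD163 (CPM, log y axis) in each of the 15 libraries against CD68 (left, CPM) and against the sum of 7 T cell marker genes (right, CPM), both on log x axes. Colors are conditions and symbols are replicates. PRP lysate (7.34 to 13.4 CPM) and ACS (43.2 to 92.0 CPM) lie below the other conditions. On the x axes PRP lysate covers 1340 to 1929 CPM of CD68 and a T cell sum of 675 to 1542 CPM, and ACS only 1602 to 1683 and 647 to 828 CPM.

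Among the related receptor genes, CD163L1, a paralog of CD163 in the same scavenger receptor cysteine-rich family, lies next to it on chromosome 6 (35823740 to 35878437, a gap of 17983 bases). Reads that fit both genes could have been left out or assigned to the wrong one in the counting. CD163L1 was at 13.6 ± 6.90 CPM untreated, 22.0 ± 2.10 with IL-1ß, 19.6 ± 8.92 with MSC-CM, 2.11 ± 0.633 with ACS and 1.65 ± 0.259 with PRP lysate (SD, n = 3). It was called lower with PRP lysate than in untreated macrophages (log2 fold change -2.32, limma adjusted p = 0.00583) and than with MSC-CM (-2.87, limma adjusted p = 0.000934), and with ACS than with MSC-CM (-2.65, limma adjusted p = 0.00361). The call against untreated macrophages was lost when only those 2 conditions were fitted (limma adjusted p = 0.0727). In CD163L1 PRP lysate and ACS were not shown to differ (log2 difference -0.22, limma adjusted p = 0.855). On the other side of CD163 the nearest gene, ENSECAG00000029799, was at 1.45 to 3.46 CPM in the condition means, with log2 fold changes against IL-1ß of 0.37 with PRP lysate and 0.49 with ACS. PEX5, a peroxisomal import receptor that lies beyond CD163L1, changed by 0.25 and 0.53.

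STAB1 (stabilin-1, ENSECAG00000009860, chromosome 16, 36716760 to 36743818) clears modified lipoproteins and matrix fragments in alternatively activated macrophages. It was at 21.4, 24.9 and 12.7 CPM in untreated macrophages, 64.4, 66.5 and 44.7 CPM with IL-1ß, and 38.7, 18.2 and 41.6 CPM with MSC-CM. All IL-1ß libraries lay above all libraries of both other conditions. The rise over untreated was 1.56 ± 0.53 on the log2 scale (SE) and did not pass the test (limma adjusted p = 0.240), nor did MSC-CM against IL-1ß (-0.88, limma adjusted p = 0.705) or against untreated (0.68, limma adjusted p = 0.632). No receptor was called in MSC-CM against IL-1ß by limma, edgeR or DESeq2, as 0% of all genes were called in limma, and 0 had an unadjusted limma p-value of 0.05 or less, against 5.60% of all genes. The groups did not overlap, with MSC-CM lower, in 2 of the 7 (STAB1 and MSR1), against 1.54% of all genes. Against untreated macrophages MSC-CM gave 0 receptors called by the same tools, where 0.662% of all genes were called in limma. At an unadjusted limma p-value of 0.05 or less stood 2 of the 7, against 15.7% of all genes.

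With PRP lysate STAB1 was at 2.53, 11.4 and 17.1 CPM and with ACS at 17.9, 13.1 and 7.20 CPM, below every IL-1ß library. The log2 fold changes against IL-1ß were -2.66 and -2.18 ± 0.53 (SE), in the contrasts that chose CD163, and are given without a test. PRP lysate replicate 1 lay well under the other PRP lysate libraries. STAB1 overlapped with untreated macrophages for both products (log2 fold changes -1.11 and -0.62, limma adjusted p = 0.416 and 0.905). Against MSC-CM the groups lay apart, at -1.79 with PRP lysate and -1.30 with ACS (limma adjusted p = 0.087 and 0.296). Without PRP lysate replicate 3 the former passed (-2.27, limma adjusted p = 0.0442), and DESeq2 on all libraries called it (-1.63, adjusted p = 0.0332). Over the 6 fits without 1 library it ran from -2.27 to -1.09, with limma adjusted p-values of 0.0442 to 0.326. The change with PRP lysate against untreated ran from -1.59 to -0.41 over such fits.

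CD36 (ENSECAG00000015229, chromosome 4, 488367 to 719342) is a class B scavenger receptor for oxidized lipoproteins, long-chain fatty acids and thrombospondin. It was at 185, 277 and 154 CPM in untreated macrophages, 252, 218 and 105 CPM with IL-1ß and 135, 163 and 275 CPM with MSC-CM. These 3 conditions overlapped throughout. With PRP lysate it was at 20.9, 77.2 and 58.1 CPM and with ACS at 72.2, 74.8 and 58.8 CPM. All 6 of these libraries lay below all of the other 9. Unlike CD163, CD36 overlapped between the blood products.

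CD36 fell with PRP lysate against untreated macrophages (log2 fold change -2.10 ± 0.45, SE, limma adjusted p = 0.0239) and against MSC-CM (-1.98 ± 0.45, SE, limma adjusted p = 0.0237). Both tests use the PRP lysate libraries of the contrasts that chose CD163, so they may not be independent of the choice of receptors. The call against MSC-CM was lost without MSC-CM replicate 2 (adjusted p = 0.0610) and replicate 3 (0.136) in limma. That against untreated macrophages was lost in limma without untreated replicates 1 (adjusted p = 0.0983) and 2 (0.129) and without PRP lysate replicates 1 (0.068) and 3 (0.0522). Both calls were lost when only the 2 conditions were fitted (limma adjusted p = 0.13 against untreated and 0.111 against MSC-CM) and over the 12 numbered libraries (0.0646 and 0.0614). The macrophage markers moved the same way, with 11 of 12 below 0 against MSC-CM (median -0.99, all genes -0.09, AIF1 and C1QC called) and 12 of 12 against untreated macrophages, and their part in the CD36 levels was not tested. With ACS the log2 fold changes were -1.53 against untreated macrophages and -1.41 against MSC-CM, and neither passed (limma adjusted p = 0.25 and 0.152), though DESeq2 and a fit of only the 2 conditions called both. Against IL-1ß, where no test is given, they were -1.95 with PRP lysate and -1.38 with ACS.

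CD163 is left out of the following counts, since its blood product libraries chose it. In PRP lysate against untreated macrophages 1 of the other 6 receptors was called lower (CD36), where 1.33% of all genes were called lower. In PRP lysate against MSC-CM CD36 was again the one called, against 1.81% of all genes. In ACS against MSC-CM 0 were called, against 0.636% of all genes called lower, and in ACS against untreated 0, against 0.37% of all genes called in limma. There 1 of the 6 had an unadjusted limma p-value of 0.05 or less, against 7.65% of all genes. For ACS against untreated edgeR called 0 and DESeq2 called CD36. The groups of libraries did not overlap, with the first named lower, in 2 of the 6 receptors in PRP lysate against untreated (8.41% of all genes), 2 in ACS against untreated (10%), 3 in PRP lysate against MSC-CM (12.1%), 2 in ACS against MSC-CM (22.2%) and 2 in PRP lysate against ACS (8.97%). Against IL-1ß, the contrasts that chose CD163, 4 receptors were called lower with PRP lysate (CD163, STAB1, CD36 and MARCO; 2.02% of all genes) and 2 with ACS (CD163 and STAB1; 0.98%), from which nothing is read.

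**Figure D4:**
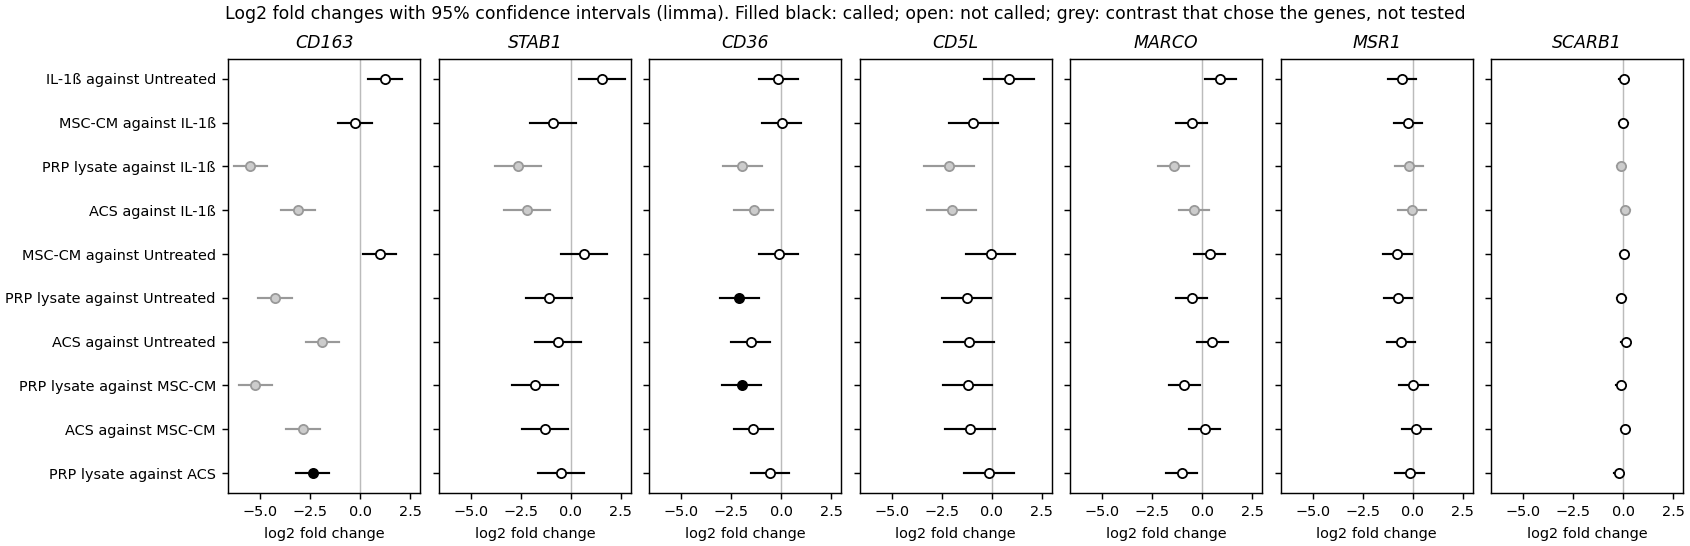
Log2 fold changes (x axis) of the 7 receptors tested in the 10 comparisons (y axis), with 95% confidence intervals from limma. Filled black points passed the threshold, open points did not, and grey points belong to the contrasts and libraries that chose the genes and were not tested. The black points are CD36 with PRP lysate against untreated (-2.10) and MSC-CM (-1.98), and CD163 with PRP lysate against ACS (-2.39), which is not independent of the choice of CD163. The CD36 tests share the PRP lysate libraries that chose CD163.

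CD5L (ENSECAG00000023772, chromosome 5, 36407113 to 36418065) encodes a secreted scavenger receptor cysteine-rich protein of tissue macrophages, also known as AIM. It was at 7.76, 10.6 and 3.73 CPM untreated, 16.5, 17.6 and 7.99 CPM with IL-1ß and 5.32, 4.45 and 11.49 CPM with MSC-CM. With PRP lysate it was at 0.349, 3.40 and 4.86 CPM and with ACS at 4.66, 3.06 and 0.960 CPM. All 6 libraries of the blood products lay below the lowest IL-1ß library, but they overlapped with untreated macrophages and with MSC-CM. Against untreated the log2 fold changes were -1.26 with PRP lysate and -1.14 with ACS ± 0.57 (SE), and against MSC-CM -1.21 and -1.09, none of them past the test (limma adjusted p = 0.373, 0.698, 0.362 and 0.448). Against IL-1ß they were -2.13 and -2.01, given without a test. When 1 library was left out, the changes with PRP lysate reached -0.63 against untreated and -0.57 against MSC-CM. Those with ACS reached -0.71 and -0.66. IL-1ß against untreated gave 0.87 (limma adjusted p = 0.525).

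MARCO (ENSECAG00000012151, chromosome 18, 11974258 to 12007892) is a class A receptor with a collagenous stalk that binds bacteria and particles. Its level was low in all libraries. It was at 2.66, 1.60 and 1.77 CPM untreated, 4.0, 6.44 and 3.70 CPM with IL-1ß and 2.36, 1.72 and 5.29 CPM with MSC-CM. With PRP lysate it was at 0.699, 1.48 and 1.13 CPM and with ACS at 5.95, 2.61 and 1.98 CPM. The PRP lysate libraries were the lowest 3 of the 15, while those of ACS overlapped with all 3 other conditions. PRP lysate against ACS gave a log2 difference of -1.02 ± 0.36 (SE) that did not pass (limma adjusted p = 0.681). PRP lysate against MSC-CM gave -0.89 (limma adjusted p = 0.241), against untreated -0.52 (limma adjusted p = 0.653), and IL-1ß against untreated 0.91 (limma adjusted p = 0.303). Against IL-1ß the difference was -1.43 with PRP lysate and -0.41 with ACS, with no test, and on the recovered reads edgeR gave -2.17 for the former.

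MSR1 (scavenger receptor A, ENSECAG00000011292, chromosome 27, 19359078 to 19435889), a class A receptor for modified low density lipoprotein, did not share the order of CD163. It was at 217, 273 and 203 CPM untreated, 155, 152 and 167 CPM with IL-1ß and 140, 142 and 123 CPM with MSC-CM. With PRP lysate it was at 65.7, 185 and 212 CPM and with ACS at 165, 178 and 122 CPM. Untreated macrophages held the highest mean, above every library with IL-1ß, MSC-CM or ACS. The log2 fold changes against untreated were -0.54 with IL-1ß, -0.76 with MSC-CM, -0.58 with ACS and -0.73 with PRP lysate ± 0.33 (SE). None passed the test (limma adjusted p = 0.497, 0.270, 0.774 and 0.363). PRP lysate replicate 1 set the sign against IL-1ß, which was -0.20 with it and 0.33 without it.

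SCARB1 (ENSECAG00000024242, chromosome 8, 26820983 to 26890901), the class B receptor of high density lipoprotein, was the steadiest of the receptors. It lay between 284 and 381 CPM in all 15 libraries, a 1.34-fold range. Its means were 334 ± 9.33 CPM untreated, 339 ± 10.4 with IL-1ß, 343 ± 9.40 with MSC-CM, 365 ± 13.8 with ACS and 314 ± 35.6 with PRP lysate (SD, n = 3). PRP lysate replicate 1 was at 353 CPM, the highest library of its group, where 6 other receptors had their lowest value. All PRP lysate libraries lay below all ACS libraries, by 0.22 ± 0.10 on the log2 scale (SE), which did not pass the test (limma adjusted p = 0.842).

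OLR1 (LOX-1, ENSECAG00000011965, chromosome 6, 38238677 to 38248199), a lectin-like receptor of oxidized lipoprotein, held 461 reads in all 15 libraries together. It was at 0.281, 0.897 and 1.08 CPM untreated, 1.14, 0.650 and 0.553 CPM with IL-1ß and 0.521, 1.34 and 1.36 CPM with MSC-CM. With PRP lysate it was at 0.672, 0.263 and 0.106 CPM and with ACS at 0.245, 1.34 and 1.46 CPM. The conditions overlapped, and neither edgeR nor DESeq2 called it in any of the 10 comparisons. COLEC12 (ENSECAG00000018963, chromosome 8, 43929046 to 44105865), a collectin-like receptor of endothelium, held 62 reads in all and was listed at 0 in 5 libraries, with its highest value 0.484 CPM in PRP lysate replicate 1. A count of 0 allows up to 0.0626 to 0.106 CPM (3 reads) depending on the library, for counting error only. Differences in COLEC12 were not detectable at this depth.

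The receptors varied together to different degrees. Over the 15 libraries the Pearson correlation of log2(CPM + 1) with CD163 was 0.886 for CD36, 0.848 for STAB1, 0.801 for CD5L, 0.682 for MARCO, 0.233 for SCARB1 and 0.229 for MSR1. With the condition means taken out it was 0.917 for CD5L, 0.816 for STAB1, 0.791 for MARCO, 0.773 for CD36, 0.423 for MSR1 and -0.447 for SCARB1. The libraries share their scaling to a fixed total, so these are descriptions. Library by library, PRP lysate replicate 1 was the lowest of its group in 6 of the 7 receptors, IL-1ß replicate 3 in 6 and ACS replicate 3 in 6. The first 2 of these are the libraries with the highest T cell marker sums, and ACS replicate 3 had the highest sum of its group (828 CPM). The part of these markers in the spread was not tested.

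The median log2 fold change of the 7 receptors was 0.87 in IL-1ß against untreated, against -0.07 over all genes. It was -1.11 in PRP lysate against untreated (all genes 0.04), -0.62 in ACS against untreated (0.08), -1.21 in PRP lysate against MSC-CM (-0.09), and -1.09 in ACS against MSC-CM (-0.04). In PRP lysate against ACS it was -0.49 (-0.04), with all 7 below 0. Above 0 stood 3 of the 7 in ACS against MSC-CM, 2 in ACS against untreated and 1 in PRP lysate against MSC-CM. The medians with a blood product hold CD163, which was chosen for its fall in those libraries, so they are descriptions from which nothing is read. CPM and RLE scaling differed by more than 0.1 in the median of all genes in 3 comparisons. These were MSC-CM against IL-1ß (0.16 and -0.00), ACS against IL-1ß (0.13 and 0.01) and MSC-CM against untreated (0.10 and -0.01).

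The genes with a pattern most like that of CD163, among 8633 genes averaging 10 CPM or more over the 15 libraries, were OLFML2B (r = 0.983), ENSECAG00000019222 (0.981), ENSECAG00000017042 (0.978), ENSECAG00000022247 (0.977) and CAMKK1 (0.976). OLFML2B, an extracellular matrix protein gene, was at 11.3 CPM untreated, 23.3 with IL-1ß, 20.1 with MSC-CM, 5.20 with ACS and 2.12 with PRP lysate. ENSECAG00000017042 went from 41.3 CPM with IL-1ß to 4.16 with ACS and 0.628 with PRP lysate. Over the 5 condition means alone the most alike were MARCKS (0.998), DBNDD2 (0.998), MAX (0.996), ENSECAG00000019222 (0.995) and CCR6 (0.995). DBNDD2 and MAX had that order of conditions over a narrow range, 15.3 to 20.6 and 49.95 to 59.9 CPM. Of the receptors CD36 was the most like CD163 over 15 libraries, and 100 genes were more alike than it.

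**Figure D5:**
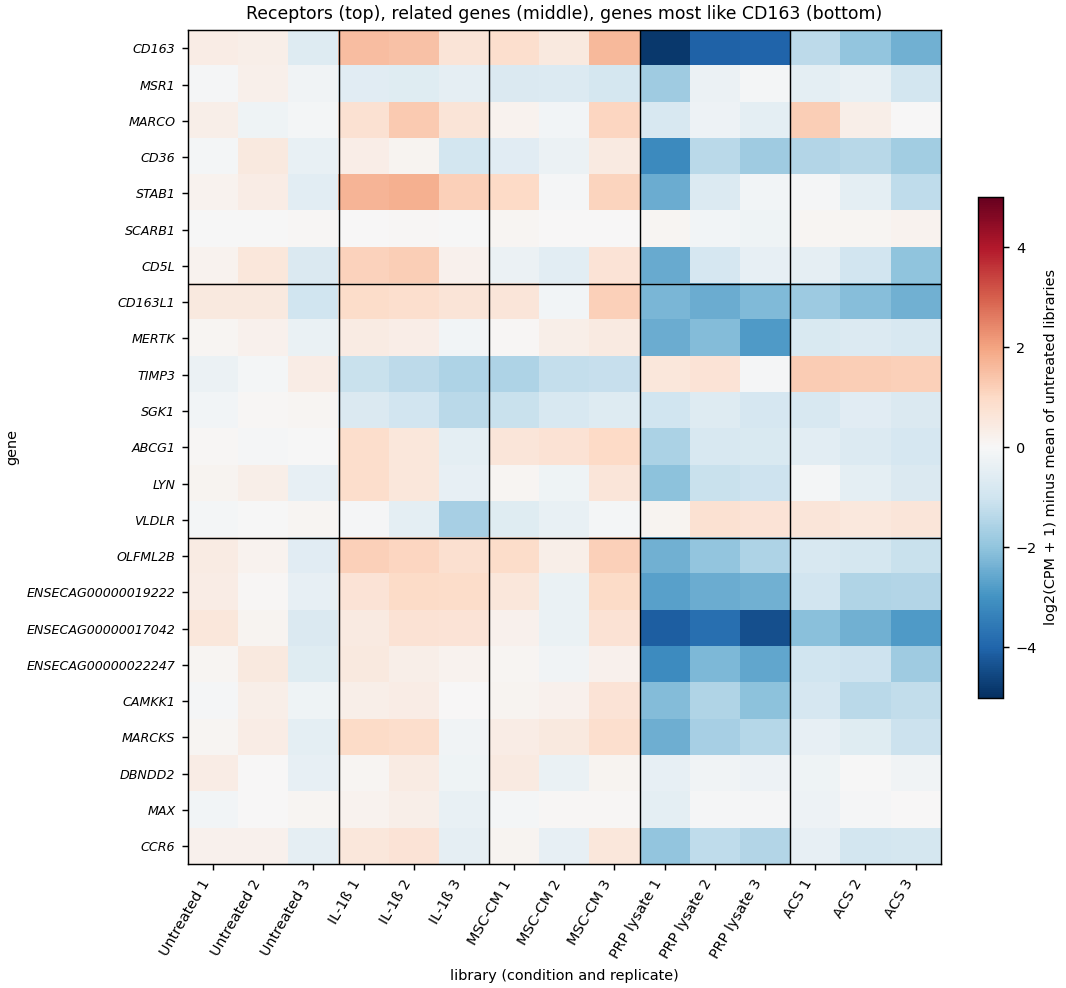
Heat map of 7 receptors (top), 7 related genes (middle) and the genes most like CD163 (bottom), one row per gene and one column per library, grouped by condition. Color is log2(CPM + 1) minus the mean of the untreated libraries, from -5 (blue) to 5 (red). The PRP lysate columns are the bluest in the CD163 row, while the DBNDD2 and MAX rows are pale in all columns, and TIMP3 is red with ACS.

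In the other scavenger and endocytic receptors listed alongside, 17 of 23 were found and 13 tested, and none was called higher in any of the 10 comparisons. Only CD163L1 and MERTK were called lower. For this list and those below, the share of all genes called ran from 0% to 3.09% by comparison. MERTK, a receptor kinase for the uptake of apoptotic cells, was at 46.3 ± 9.17 CPM untreated, 53.5 ± 10.8 with IL-1ß, 55.5 ± 7.45 with MSC-CM, 26.8 ± 1.29 with ACS and 7.45 ± 1.89 with PRP lysate (SD, n = 3). It fell with PRP lysate against untreated (log2 fold change -2.49, limma adjusted p = 4.4e-05), against MSC-CM (-2.76, limma adjusted p = 2.25e-05) and against ACS (-1.74, limma adjusted p = 0.00386). These 3 calls held without any 1 library, but the one against ACS was lost when only those 2 conditions were fitted (limma adjusted p = 0.0972). Its fall with ACS against MSC-CM (-1.02, limma adjusted p = 0.0278) was lost without any of the 6 libraries (adjusted p from 0.0597 to 0.159 in limma). For CD163L1 the fall with ACS against untreated macrophages (-2.10, limma adjusted p = 0.0325) was kept only without untreated replicate 3, with adjusted p-values of 0.00521 to 0.189 over the 6 fits. The list's median was between -0.25 and 0.06 in all 10 comparisons.

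Of the partners of CD163 in hemoglobin and heme handling, 12 of 14 were found and 11 tested, and none was called in any comparison. HMOX1, which degrades heme, was at 504 ± 41.4 CPM untreated, 458 ± 100 with IL-1ß, 382 ± 57.5 with MSC-CM, 338 ± 6.56 with ACS and 472 ± 77.9 with PRP lysate (SD, n = 3). FTL, the ferritin light chain, was at 3333 ± 426 CPM untreated, 3608 ± 849 with IL-1ß, 2427 ± 368 with PRP lysate and 2125 ± 316 with ACS. In PRP lysate against IL-1ß 7 of the 11 had a log2 fold change below 0, with a median of -0.05 (all genes 0.11). Against untreated macrophages 10 of the 11 were below 0 with PRP lysate, with a median of -0.49 (all genes 0.04), the lowest of the list's medians over the 10 comparisons.

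In the machinery that sheds CD163 from the cell, all 8 genes were tested and only TIMP3, the inhibitor of ADAM17, was called. The protease itself, ADAM17, was at 102 ± 18.2 CPM untreated, 80.5 ± 46.1 with IL-1ß, 104 ± 22.6 with MSC-CM, 112 ± 2.01 with ACS and 97.2 ± 33.0 with PRP lysate (SD, n = 3). TIMP3 was at 71.4 ± 17.5 CPM untreated, 27.7 ± 4.04 with IL-1ß, 28.1 ± 4.07 with MSC-CM, 165 ± 6.34 with ACS and 95.2 ± 24.2 with PRP lysate. Its means were thus lowest where those of CD163 were highest. Its highest mean was with ACS, though CD163 was lowest with PRP lysate. In TIMP3 the difference between PRP lysate and ACS was -0.82 on the log2 scale and did not pass (limma adjusted p = 0.311). PRP lysate against untreated gave 0.40 and did not pass (limma adjusted p = 0.481). TIMP3 rose with PRP lysate (log2 fold change 1.70, limma adjusted p = 0.000621) and with ACS (2.52, limma adjusted p = 0.000293) against MSC-CM, in every fit without 1 library. IL-1ß against untreated gave -1.32 (limma adjusted p = 0.0341), which passed only without IL-1ß replicate 3 when libraries were left out (adjusted p from 0.0436 to 0.153 in limma). MSC-CM against untreated gave -1.30 (limma adjusted p = 0.0168), which passed only without untreated replicate 1 (adjusted p from 0.0381 to 0.076 in limma). ACS against untreated gave 1.22 (limma adjusted p = 0.0263), which likewise passed only without untreated replicate 3 (adjusted p from 0.0213 to 0.168 in limma).

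Of 8 glucocorticoid response genes tested (9 of 10 found), SGK1 alone was called, and only in IL-1ß against untreated, at 185 ± 37.8 against 367 ± 29.0 CPM (SD, n = 3; log2 fold change -1.002, limma adjusted p = 0.0348). The call was kept only without IL-1ß replicate 1 when libraries were left out, and RLE scaling took the fold under 2 (log2 fold change -0.94). FKBP5, a standard reporter of the glucocorticoid receptor, was at 52.4 ± 5.69 CPM untreated, 52.7 ± 14.8 with IL-1ß, 70.2 ± 8.81 with MSC-CM, 66.0 ± 10.2 with ACS and 56.3 ± 10.1 with PRP lysate.

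Of 17 partners in lipid uptake, storage and efflux, 16 were tested and ABCG1, LYN and VLDLR were called. ABCG1, a cholesterol exporter, was at 66.1 ± 9.17 CPM with MSC-CM, 23.4 ± 2.47 with ACS and 18.7 ± 5.74 with PRP lysate (SD, n = 3). It fell with PRP lysate against MSC-CM (log2 fold change -1.81, limma adjusted p = 0.00414), and the fall with ACS (-1.46, limma adjusted p = 0.0284) was lost without any of the 6 libraries (adjusted p from 0.077 to 0.155 in limma). LYN, a kinase that signals from CD36, was at 176 ± 50.5 CPM with MSC-CM and 60.3 ± 21.3 with PRP lysate (-1.56, limma adjusted p = 0.0244). That call was lost without MSC-CM replicate 1, MSC-CM replicate 3 or PRP lysate replicate 1 (adjusted p up to 0.137 in limma). VLDLR, a receptor of triglyceride-rich lipoprotein, was called only against IL-1ß, higher with both blood products, and without IL-1ß replicate 3 its log2 fold changes were 0.78 with PRP lysate and 0.83 with ACS, under 2-fold.

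Markers of other cells moved with some conditions. The endothelial marker sum was 185 to 321 CPM untreated, 253 to 518 with IL-1ß, 192 to 407 with MSC-CM, 63.1 to 103 with PRP lysate and 119 to 153 with ACS. It was mostly PECAM1, which monocytes also carry and which was called in 4 of the 10 comparisons, while VWF was at 0 in 11 libraries. The other 3 endothelial markers tested had log2 fold changes above 0 against IL-1ß both with PRP lysate and with ACS, while all 4 were below 0 with PRP lysate against untreated macrophages. CDH5 was at 9.53 CPM untreated, 2.04 with IL-1ß, 2.44 with ACS and 6.13 with PRP lysate. Of the 5 dendritic cell markers tested, 3 were called lower with PRP lysate than with MSC-CM (FLT3, FCER1A and LAMP3, list median -1.27, all genes -0.09, with 1.81% of all genes called lower) and 2 than with IL-1ß (FLT3 and FCER1A, median -1.23, all genes 0.11, with 2.02% of all genes called lower). Their summed level, mostly CCR7, was 168 to 319 CPM with PRP lysate, 179 to 359 with ACS and 168 to 249 in the other conditions. The neutrophil marker sum was 486 to 546 CPM with PRP lysate and 530 to 759 with ACS against 268 to 431 in the other conditions. It was mostly CSF3R, and LTF was at 0 in 9 libraries. The platelet marker sum did not pass 4.34 CPM in any library. The part of these cells in the receptor levels was not tested.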

How the data were processed

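Polyadenylated RNA of equine macrophages was measured in 15 libraries of 5 conditions. The authors trimmed the reads at a Phred score of 20, used STAR 2.7.3 with EquCab3.0, and took HTSeq counts of the Ensembl genes. The authors deposited CPM for 16932 genes. The strand setting was not given in the sources used here, so overlapping genes and paralogs are uncertain. Columns summed to 982495 to 991421 CPM and 0 were left unmatched.

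Whole reads were recovered from the step between values (99.7% of values within 0.1 read). The planned limma fit (3.58.1, R 4.3.3, intensity trend) on log2(CPM + 1) held all libraries and 5 conditions, with a mean of at least 1 CPM as filter and Benjamini-Hochberg adjustment over all genes of each of 10 comparisons. edgeR 4.0.16 quasi-likelihood and DESeq2 1.42.0 on the recovered reads were alternatives, as were RLE and TMM factors, a pseudocount of 0.1, no filter, only the compared conditions, a replicate block and leaving out libraries. The fit was tested on simulated data. No batch was given in the labels, and no 2 libraries of a condition agreed within sampling noise. ACS replicates were numbered in accession order.

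The members and gene lists were chosen with earlier results of these data known, so p-values that use the blood product libraries may not be independent of that choice. Named genes were all receptors, up to 4 per list called in most comparisons, and the 5 genes most correlated with CD163 by library and by condition mean. HMOX1, FTL, ADAM17, FKBP5, PECAM1, CSF3R and the neighbours of CD163 were added after their values were seen.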

Additional observations from a re-analysis of the deposited data

Results flagged for a closer look

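The difference between PRP lysate and ACS in CD163 was a log2 difference of -2.39, lower with PRP lysate in 3 of 3 libraries (limma adjusted p = 0.0347, and 1.24e-07 to 0.237 over the alternatives). CD163 was chosen for its fall in these same libraries, so this p-value is not independent of that choice, and it stayed under 0.05 in 1 of the 6 fits that left out 1 library. The difference between PRP lysate and MSC-CM in CD36 was -1.98, lower with PRP lysate in 3 of 3 libraries (limma adjusted p = 0.0237, and 0.000354 to 0.136 over the alternatives). That test uses the same PRP lysate libraries, so it may not be independent of the choice of receptors either. In each pair both products had been set against the same IL-1ß libraries, and the test compares their libraries with each other.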

How the results depend on the processing

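Over 75 log2 fold changes and 1142 refits of them, 1028 kept their side of the threshold or stayed within the spread between replicates, 83 lost a call, 12 gained a call, 19 moved further, and 0 called changes turned sign. Fitting only the 2 conditions compared called 1 receptor in PRP lysate against IL-1ß, 1 in ACS against IL-1ß, 1 in PRP lysate against untreated, 2 in ACS against untreated, 1 in PRP lysate against MSC-CM, 3 in ACS against MSC-CM and 0 in PRP lysate against ACS. These counts hold CD163, and over all genes the same fits called 56, 48, 50, 131, 167, 324 and 0, against 359, 257, 186, 43, 304, 143 and 11 in the fit of all libraries. DESeq2 called 4, 2 and 2 receptors with ACS against IL-1ß, untreated and MSC-CM (574, 116 and 292 of all genes). Without IL-1ß replicate 3 and PRP lysate replicate 1 these were 4, 2 and 3 (308, 134 and 325 of all genes), and IL-1ß against untreated gave 2 (92 of all genes). In ACS against IL-1ß a pseudocount of 0.1 and no filter each called 1 (242 and 207 of all genes). Without the filter PRP lysate against ACS called 0 (10 of all genes). RLE and TMM factors each called 1 in ACS against untreated (48 and 51 of all genes). Leaving out 1 library gave 2 to 5 in PRP lysate against IL-1ß (274 to 469 of all genes). In ACS against IL-1ß it gave 1 to 2 (102 to 692 of all genes). Against untreated it gave 1 to 2 with PRP lysate (89 to 210) and 0 to 1 with ACS (5 to 39). In PRP lysate against MSC-CM it gave 1 to 3 (171 to 398), and in PRP lysate against ACS 0 to 1 (5 to 16). The cause was not tested.

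Same-numbered libraries of different conditions correlated between -0.775 and 0.635 (mean 0.0532) in their deviations from the condition means. Between MSC-CM and PRP lysate, where a number could stand for a shared donor horse, same-numbered pairs gave 0.635, 0.256 and 0.417. Differently numbered pairs of these groups gave -0.596 to 0.469. What the numbers stand for was not given in the labels, so pairing by donor was not tested. With the replicate as a block, over the 12 numbered libraries, 1 receptor was called in PRP lysate against IL-1ß, 1 against untreated and 1 against MSC-CM, with CD36 at an adjusted p-value of 0.121 and 0.1 in the latter 2 in limma. CD163L1 in PRP lysate against untreated lost its call under the block (adjusted p = 0.0629 in limma). The same 12 libraries without the block, an alternative chosen after seeing the data, also called 1 in each of these 2, but 3 in PRP lysate against IL-1ß. Over all genes the block called 196, 72 and 170, and the 12 libraries without it 276, 143 and 237. Depth limited OLR1 and COLEC12, with 461 and 62 reads in all libraries.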
